A study of Macaca mulatta with 24 samples.

Results

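The genes described here serve the secretory pathway and the unfolded protein response. They come from a list of 59 gene symbols, and a member is a listed gene whose symbol stands as a gene name in the array files. Of the 59 genes 29 were found in this way, on 34 probes, among 18976 gene names on the array. Where a member had several probes, the one with the highest mean signal stood for it. The filter on dim probes passed 28 members among 12629 features. The member left out by it was SEL1L, a scaffold of the ligase complex that removes misfolded proteins from the endoplasmic reticulum, whose probe was well above background on 0 of 21 arrays. The probe of SEC63 was well above background on 7 of these arrays, and those of the other 27 members on all 21.

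Proteins bound for secretion or for membranes enter the endoplasmic reticulum as they are made. The signal recognition particle brings the ribosome to the membrane, the Sec61 channel passes the chain through, and chaperones and disulfide isomerases fold it. Vesicles with a COPII coat carry cargo to the Golgi, and vesicles with a COPI coat bring escaped residents back. When unfolded proteins build up, the sensors ATF6, IRE1 and PERK raise chaperones, degradation factors and transport factors by way of ATF6 itself, XBP1 and ATF4. The glands of the uterine lining turn to secretion after ovulation, under progesterone.

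Endometrium of rhesus monkeys was measured on 24 Agilent 1-colour arrays in 6 groups of 4. The conception groups are from mated cycles with proven conception, and the non-mated groups are from normo-ovulatory cycles of proven fertile monkeys, each at day 2, 4 or 6 after ovulation. For the conception samples the source names count these days post fertilization, but the descriptions and the series design count them after ovulation, as is done here. Whole tissue was used, so fewer cells of a type and less RNA per cell cannot be told apart. No label ties the arrays of a group to different animals, so p-values describe only how far these samples spread, part of which may be technical. In 8 non-mated samples the title gives day 2 and the other labels day 4 or 6, and the other labels were used.

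Between 53.3% and 71.5% of the probes of 21 arrays passed the scanner software's test for signal well above background. The share was 4.33% on non-mated day 2 replicate 3, 37.9% on non-mated day 4 replicate 1 and 21.8% on non-mated day 4 replicate 2. These 3 weak arrays were left out of the fit, which leaves 3, 2 and 4 non-mated arrays at days 2, 4 and 6 and 4 conception arrays on each day. They enter the differences at days 2 and 4 between cycle types, those between non-mated days and the interaction. For a member difference printed there, the value with all 24 arrays is given if it turns the sign or differs by over 1.5 times. Group means and per-array levels in the text leave the weak arrays out unless stated. The epithelial markers on the array, PAX8, FOXA2 and SOX17, were well above background on all 21 arrays, as were 6 of the 7 stromal markers, among them HOXA11, VIM and DCN. Of the 2 markers of decidual stroma, prolactin (PRL) was well above background on 0 of 21 arrays and IGFBP1 on 2.

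A level below is the log2 processed signal relative to the 75th percentile of the same array, so 0 is a probe at that percentile and a difference of 1 is 2-fold. Levels are compared between arrays and not between genes. Each gene was read by a probe of 60 bases. The last 30 bases are printed for the probes on which most per-array values rest, to show what was hybridised, with sequences and rheMac2 positions of the whole probe from the array files. Capitals mark the hexamer AATAAA, the usual polyadenylation signal. On the printed strand it was found in the last 30 bases for 4 of the 29 members, against 10.9% of all 20217 probes, and ATF4 and SSR4 are among the 4.
ATF4, chr10:83449241-83449300, plus strand: gagtctgctgttgctgtgtgttggAATAAA
ATF6, chr1:140486408-140486467, plus strand: catcttctttcaaataatatccacctctcc
XBP1, chr10:72624189-72624248, minus strand: aactacccatgcaattaaaaggtacaatgc
SRP14, chr7:18387441-18387500, minus strand: taagtctctgtagacatctctgtgaagaac
SRP72, chr5:72875407-72875466, minus strand: cattgaaaattttaacccaaggcacagcag
SSR4, chrX:151913550-151913609, plus strand: ttgcttccttcaAATAAAcatcacaggacc
KDELR3, chr10:82386866-82386925, plus strand: tactaggtatcctgctagggttttcgattc
SAR1A, chr9:66863557-66863616, plus strand: tcagaaccaatgtatttcttgccccacgga

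No member passed the threshold in any comparison: in each of 8 comparisons 0 of 28 had an adjusted p under 0.05 by limma, with Benjamini-Hochberg adjustment over all features. Of all features 0% passed it between conception and non-mated cycles at day 2, 0% at day 4 and 0.0238% at day 6. In conception cycles 0.00792% passed for day 4 against day 2, 0% for day 6 against day 4 and 1.53% for day 6 against day 2. In non-mated cycles 0% passed for day 6 against day 2, as did 0% for the interaction of cycle type with these days. With all 24 arrays 0 of 27 members passed in each comparison, and the share of all features was 0.00830% at day 6 between cycle types, 0.0166% for day 6 against day 2 of conception cycles and 0% in the others.

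At an unadjusted p under 0.05 stood 2 members between cycle types at day 4, against 5.38% of all features, and 0 at day 2 and at day 6, against 1.29% and 9.19%. In conception cycles 3 members stood there for day 6 against day 2, against 15.0% of all features, 0 for day 4 against day 2, against 8.16%, and 0 for day 6 against day 4, against 5.08%. The count was 0 for the non-mated days, against 1.88%, and 0 for the interaction, against 4.28%. In these counts the members came near to or below the share of all features.

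**Figure D1:**
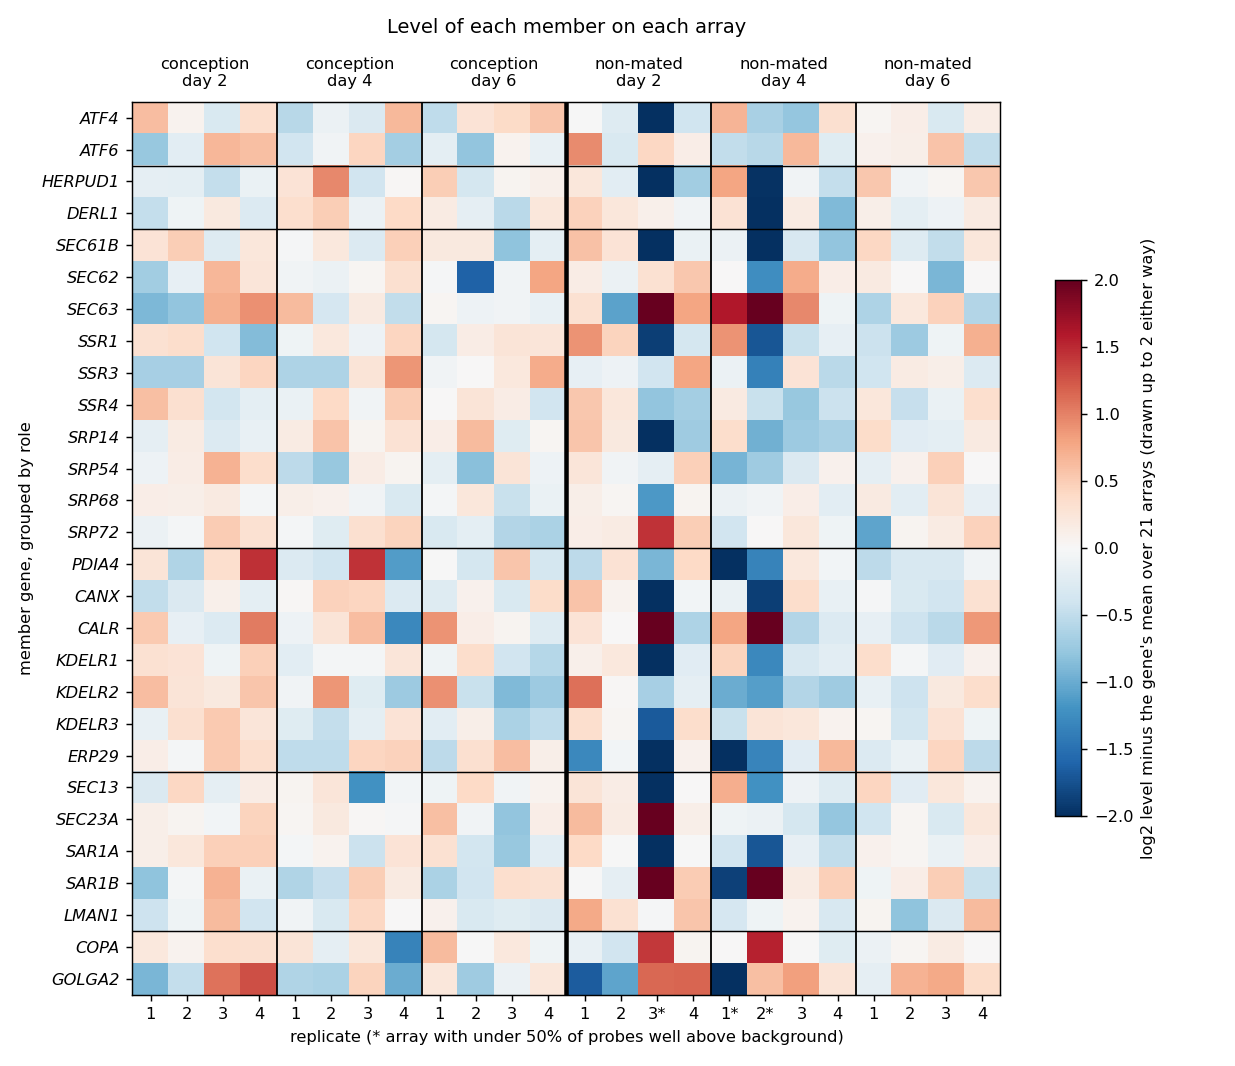
Heat map of the 28 members (rows, grouped by role) on all 24 arrays (columns, conception groups left of non-mated groups, replicate numbers below). The colour is the log2 level minus the mean of the gene over 21 arrays, drawn up to 2 either way, and the strongest colours sit in the starred weak arrays, above all non-mated day 2 replicate 3.

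The pooled SD of a member between arrays of a group had a median of 0.39 on the log2 scale, against 0.53 for all features, and ran from 0.20 for SRP68 to 0.84 for GOLGA2. The distance between the highest and the lowest of the 6 group means had a median of 0.64 over the members and 0.75 over all features. The sets differ in detection, with 27 of 28 members well above background on all 21 arrays, against 8681 of 12629 features. The part of detection in these medians was not tested. The distance was smallest for SRP68, a subunit of the signal recognition particle, at 0.19. It was widest for KDELR2, a receptor that returns chaperones from the Golgi, and nearly as wide for GOLGA2, both at 1.05. The lowest group mean of KDELR2 was that of non-mated day 4, with 2 arrays.

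The weak arrays changed the sign of the member median at day 2. The scanner software replaces very low signals with a surrogate value, per the file headers. On non-mated day 2 replicate 3, a level of -0.28 was shared by 59.3% of features and by 10 of the 28 members. On non-mated day 4 replicates 1 and 2 the commonest value was shared by 16.8% and 41.2% of features, and on the 21 others by at most 3.61%. The median member difference at day 2, conception minus non-mated, was 0.33 with all 24 arrays and -0.02 with 21, against -0.15 and 0.01 over all features. Of the 20 members with a mean level above -0.28, 19 had a higher difference with the weak array than without it, and of the 7 below it 0 did. With the weak arrays the sign turned for 9 of 27 members at day 2, 6 at day 4, 10 between the non-mated days and 6 in the interaction, and for 0 in the comparisons that hold no weak array. At day 4 the member median was 0.33 with 24 arrays and 0.08 with 21.

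**Figure D2:**
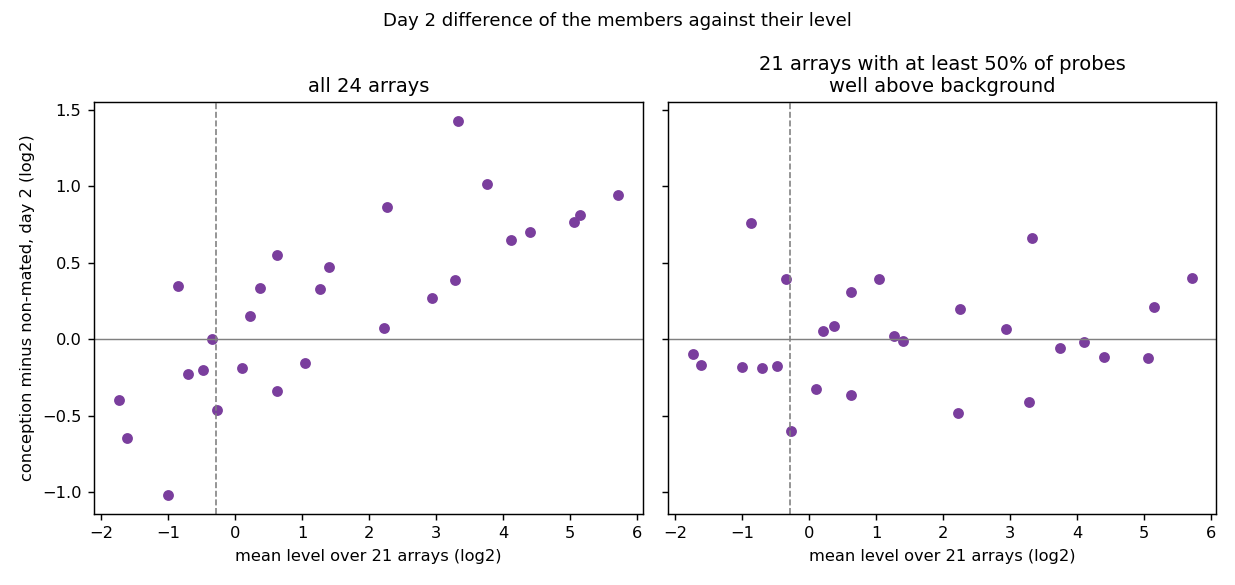
Difference between conception and non-mated endometrium at day 2 (log2, vertical axis) against the mean level over 21 arrays (log2, horizontal axis) for 27 members, with all 24 arrays on the left and 21 arrays on the right. The dashed line is the level of -0.28 shared by 59.3% of features on the weak day 2 array, and in the left panel 16 of the 20 members to its right lie above 0, against 10 in the right panel.

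Arrays of ATF4 and ATF6 overlapped between cycle types on each day. ATF4, which drives amino acid and redox genes once PERK slows translation, stood at 6.32, 5.77, 5.40 and 6.05 in day 2 conception arrays, 5.16, 5.59, 5.42 and 6.35 in those of day 4 and 5.20, 5.98, 6.09 and 6.26 in those of day 6. In non-mated arrays ATF4 stood at 5.70, 5.44 and 5.31 on day 2, 4.93 and 6.03 on day 4 and 5.75, 5.84, 5.40 and 5.86 on day 6. All arrays thus lay within a span of less than 2 log2 units, with no group apart. The ATF4 difference between cycle types was 0.40 ± 0.33 (SE) at day 2, 0.15 ± 0.38 at day 4 and 0.17 ± 0.31 at day 6, where its interval ran from -0.47 to 0.82. The 24 arrays together gave 0.94 ± 0.46 at day 2 and 0.03 ± 0.46 at day 4.

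ATF6, a membrane protein that is cut in the Golgi to free its active part, had levels of -1.46, -0.92, -0.04 and -0.10 in day 2 conception arrays, -1.08, -0.77, -0.27 and -1.38 in those of day 4 and -0.90, -1.49, -0.63 and -0.86 in those of day 6. In non-mated arrays it had 0.25, -1.01 and -0.57 on day 2, -0.05 and -0.94 on day 4 and -0.61, -0.58, -0.14 and -1.19 on day 6. Arrays of either day 2 group spread over more than 1 log2 unit. The difference between cycle types was -0.19 ± 0.40 (SE) at day 2, -0.38 ± 0.45 at day 4, -0.01 ± 0.39 there with all 24 arrays, and -0.34 ± 0.37 at day 6.

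XBP1 is spliced under stress by IRE1 into an active factor. Its symbol is no gene name in the files, and it was found by the description of a probe, a step added after the data were seen. XBP1 averaged 3.43 ± 0.16, 3.81 ± 0.59 and 3.66 ± 0.45 in conception cycles at days 2, 4 and 6 (SD, n = 4 each), against 3.29 ± 0.79 (n = 3), 3.82 ± 0.08 (n = 2) and 3.52 ± 0.41 (n = 4) in non-mated cycles. The levels measure XBP1 RNA as a whole and do not tell its spliced from its unspliced form. The day 6 difference was 0.14 ± 0.34 (SE), with an interval from -0.57 to 0.85.

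Of the genes for degradation of misfolded proteins, DERL1 and HERPUD1 were tested. DERL1 is a membrane protein of the exit route for misfolded proteins. At day 4 its levels were 0.97, 1.11, 0.52 and 1.02 in conception cycles, against 0.78 and -0.25 in non-mated cycles, and the groups overlapped. The difference was 0.64 ± 0.31 (SE; adjusted p = 0.874 by limma). It was 0.95 with all 24 arrays, 1.16 without non-mated day 4 replicate 3 and 0.12 without replicate 4. At day 2 DERL1 had 0.15, 0.54, 0.82 and 0.35 in conception cycles, against 1.08, 0.85 and 0.56 in non-mated cycles. At day 6 it had 0.78, 0.44, 0.09 and 0.85, against 0.75, 0.42, 0.53 and 0.81, and on both days the groups overlapped. HERPUD1, a stress-induced partner of the degradation complex, averaged 3.86 ± 0.15, 4.33 ± 0.56 and 4.19 ± 0.35 in conception cycles at days 2, 4 and 6 (SD, n = 4 each), against 3.88 ± 0.46 (n = 3), 3.84 ± 0.29 (n = 2) and 4.37 ± 0.33 (n = 4) in non-mated cycles. The HERPUD1 difference at day 2 was -0.02, but 0.65 with all 24 arrays.

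At day 4, but not on each day, genes of translocation held the smallest p-values between cycle types. SRP14, a subunit of the signal recognition particle that serves to slow elongation, had levels of 5.23, 5.63, 5.11 and 5.35 in conception cycles at day 4, against 4.34 and 4.40 in non-mated cycles. The groups did not overlap. The difference was 0.96 ± 0.32 (SE; unadjusted p = 0.00758), with an adjusted p of 0.874 by limma and an interval from 0.29 to 1.64. The weak day 4 arrays had 5.41 and 4.10, and with all 24 arrays the difference was 0.77 ± 0.57 (adjusted p = 0.698 by limma). At day 2 SRP14 had 4.87, 5.22, 4.78 and 4.90 in conception cycles, against 5.61, 5.26 and 4.34 in non-mated cycles. At day 6 it had 5.19, 5.68, 4.82 and 5.09, against 5.43, 4.83, 4.86 and 5.23, with overlap on both days.

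SSR4, a subunit of the translocon-associated complex beside the Sec61 channel, had 2.80, 3.34, 2.87 and 3.44 in conception cycles at day 4, against 2.18 and 2.51 in non-mated cycles. These groups did not overlap either, and the difference was 0.77 ± 0.36 (SE; unadjusted p = 0.0463; adjusted p = 0.874 by limma). With all 24 arrays, where the weak ones had 3.11 and 2.49, it was 0.54 ± 0.35. At day 2 SSR4 had 3.54, 3.26, 2.58 and 2.74 in conception cycles, against 3.48, 3.15 and 2.26 in non-mated cycles. At day 6 it had 2.94, 3.20, 3.09 and 2.55, against 3.16, 2.47, 2.80 and 3.28, and on these days the groups overlapped.

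Between cycle types at day 4 the arrays of 5 of 28 members did not overlap, all higher in conception cycles, namely SRP14, SSR4, SEC61B, SSR1 and SEC23A. Among all features 14.0% did not overlap, and 7.02% were without overlap and higher in conception cycles. The count rests on 2 non-mated arrays. With all 24 arrays 1 of 27 members, SEC23A, was without overlap, against 2.42% of all features. The SEC23A probe was well above background on 21 of the 24 arrays and not on the weak ones, which thus do not measure its level. No slide held day 4 arrays of both cycle types among the 21. With the slide as a fixed block, which compares them through the other groups, the differences were 0.35 for SRP14 and 0.19 for SSR4. Within scan day 1, with 2 arrays a group, they were 0.86 and 0.81.

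Markers of other cells differed in level on that day as well, with 0 of them past the threshold. The median difference at day 4, conception minus non-mated, was 0.71 over the 7 stromal markers, 0.68 over the 3 leukocyte markers tested, 0.55 over the 3 endothelial markers and -0.51 over the 3 epithelial markers. The epithelial markers did not share a direction, with FOXA2 at 0.43, PAX8 at -0.61 and SOX17 at -0.51. Of the stromal markers PDGFRA was at -0.13 and the others were higher in conception cycles. As a mean centred level over the list, stromal markers ranged from -0.13 to 0.35 in conception arrays of day 4, against -0.72 to -0.16 in non-mated arrays. Leukocyte markers ranged from -0.24 to 0.85 in conception arrays, against -0.58 to -0.48 in non-mated arrays, and epithelial markers from -0.43 to 0.66 in conception arrays, against 0.29 to 0.37 in non-mated arrays. Of the markers of plasma cells, which hold much endoplasmic reticulum, TNFRSF17 was well above background on 0 of 21 arrays, and the 3 tested had a median difference of -0.31. They differed widely, with IGJ at -2.11 ± 1.18 (SE), PRDM1 at -0.31 and SDC1 at 0.10. The IGJ probe was well above background on 14 of 21 arrays. The 3 smooth muscle markers tested had a median difference of -0.31 at day 4, all lower in conception cycles. Their mean centred level ranged from -1.01 to 3.12 in conception arrays of day 2, against -1.24 to 0.52 at day 6. The part of all these markers in the member values was not tested.

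SRP72, a large subunit of the signal recognition particle, had levels of -1.85, -1.77, -1.22 and -1.43 at day 2 of conception cycles, -1.77, -1.97, -1.41 and -1.30 at day 4 and -2.04, -1.92, -2.32 and -2.37 at day 6. Every day 6 array lay below every day 2 array, which held for 1 of 28 members and for 2.34% of all features. The difference between day 6 and day 2 was -0.59 ± 0.28 (SE; unadjusted p = 0.0487; adjusted p = 0.331 by limma). Non-mated arrays of SRP72 had -1.60, -1.57 and -1.24 on day 2, -1.51 and -1.82 on day 4 and -2.80, -1.68, -1.57 and -1.28 on day 6, where 1 array lay below the rest and days 6 and 2 overlapped.

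The other 7 tested genes of translocation are SEC61B of the channel, SEC62 and SEC63 beside it, SSR1 and SSR3 of the translocon-associated complex, and SRP54 and SRP68 of the particle. Higher in conception cycles were 3 of the 10 translocation genes at day 2, 6 at day 4 and 5 at day 6, with 0 past the threshold. SEC63 passed the filter only through the non-mated arrays of day 4, the group where its mean was highest. Its lower value in conception cycles on that day was thus favoured by the filter. SRP68 differed by 0.02 ± 0.21 (SE) at day 2, with an interval from -0.41 to 0.45, and by 0.33 ± 0.29 with all 24 arrays. SRP54, which binds the signal peptide, averaged -0.05 ± 0.44 at day 4 of conception cycles and 0.49 ± 0.34 at day 2 (SD, n = 4 each). That difference was -0.54 ± 0.27 (SE; adjusted p = 0.642 by limma), the smallest p of a member for these days.

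**Figure D3:**
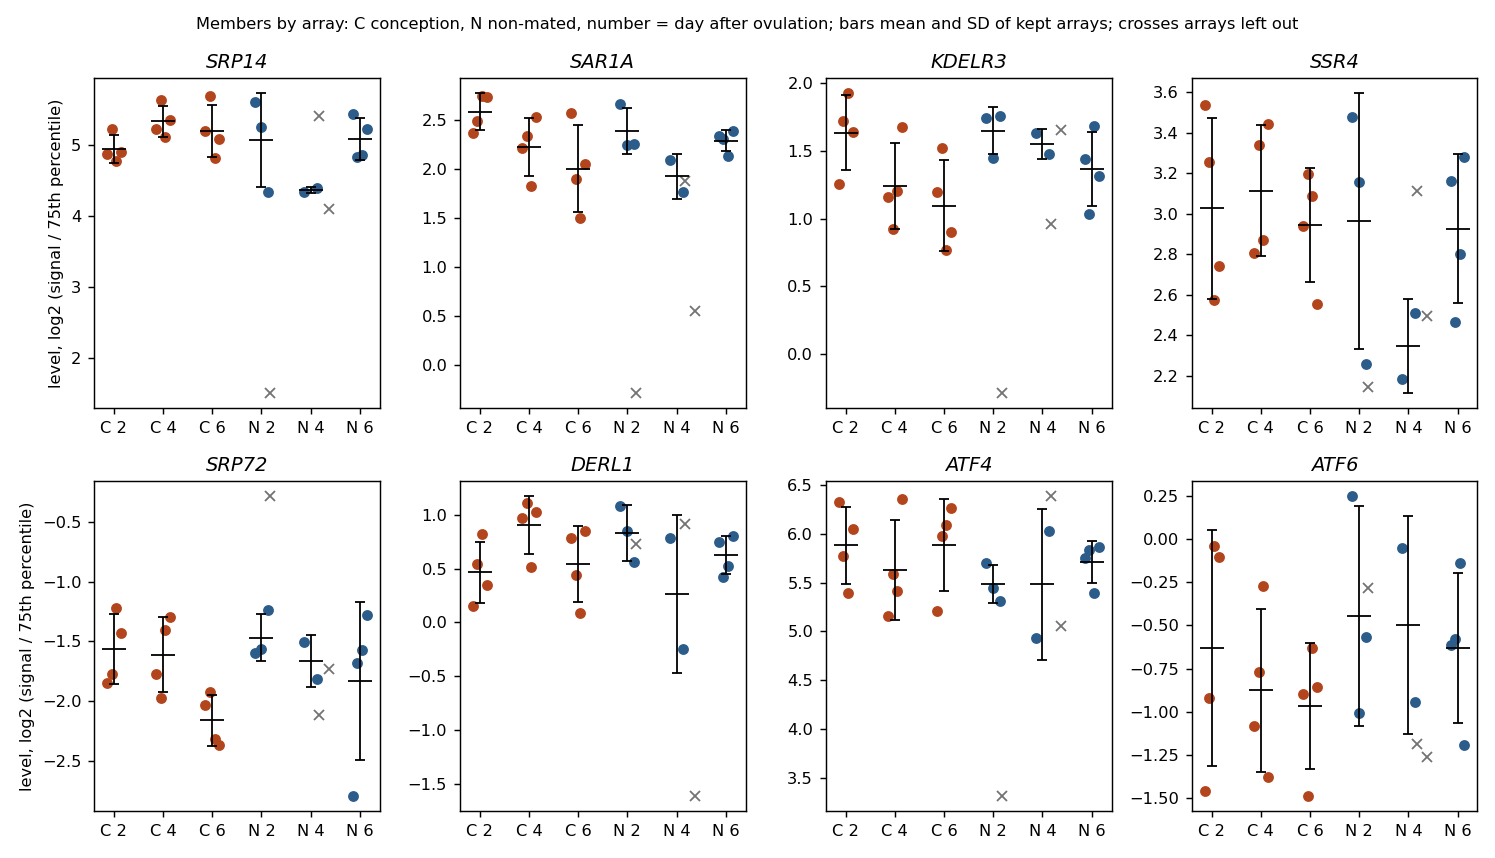
Level (log2 of signal over the 75th percentile of the array) of 8 members by group, conception days 2, 4 and 6 at the left and non-mated days at the right of each panel. Points are arrays of the fit with their mean and SD, and grey crosses are the 3 weak arrays, of which non-mated day 2 replicate 3 lies far below the rest for SRP14, SAR1A, KDELR3 and ATF4.

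Among genes of folding and retrieval the smallest p-values belonged to a KDEL receptor, one of the proteins that catch escaped chaperones in the Golgi and send them back. KDELR3 had levels of 1.26, 1.72, 1.92 and 1.64 at day 2 of conception cycles, 1.16, 0.92, 1.20 and 1.67 at day 4 and 1.19, 1.52, 0.77 and 0.90 at day 6. Days 6 and 2 overlapped, and the difference was -0.54 ± 0.23 (SE; unadjusted p = 0.0296), with an adjusted p of 0.27 by limma and an interval from -1.02 to -0.06. Non-mated arrays of KDELR3 had 1.74, 1.45 and 1.76 on day 2, 1.63 and 1.47 on day 4 and 1.44, 1.03, 1.68 and 1.31 on day 6. KDELR1 and KDELR2, the other receptors of this kind, differed by -0.41 ± 0.22 and -0.69 ± 0.39 (SE) between days 6 and 2 of conception cycles, neither past the threshold.

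Probes of 1 receptor did not all give the same difference. KDELR2 has 3 probes, and for day 6 minus day 2 of conception cycles the one used gave -0.69, the next brightest gave -0.49 and the dimmest gave 0.07. Over 21 arrays the other probes correlated with the one used at r = 0.76 and r = 0.58. The second KDELR3 probe was well above background on 1 of 21 arrays.

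Levels of the folding enzymes had wide spreads within groups. CALR, the calcium-binding chaperone calreticulin, averaged 1.32 ± 0.61, 0.91 ± 0.83 and 1.25 ± 0.49 in conception cycles at days 2, 4 and 6 (SD, n = 4 each), against 0.93 ± 0.46 (n = 3), 0.62 ± 0.22 (n = 2) and 0.98 ± 0.64 (n = 4) in non-mated cycles. PDIA4, a disulfide isomerase, averaged 0.99 ± 0.85, 0.54 ± 1.09 and 0.58 ± 0.43 in conception cycles at days 2, 4 and 6 (SD, n = 4 each), against 0.68 ± 0.50 (n = 3), 0.70 ± 0.19 (n = 2) and 0.32 ± 0.19 (n = 4) in non-mated cycles. The day 2 difference of CALR was 0.39, but -0.16 with all 24 arrays, and that of PDIA4 was 0.31, and 0.55 with all 24. CANX, the membrane chaperone calnexin, was steadier, with a pooled SD of 0.31, and differed between cycle types by -0.41 ± 0.27 (SE) at day 2 and 0.08 ± 0.25 at day 6. Its day 2 difference had the other sign with all 24 arrays, at 0.38 ± 0.56. ERP29, a chaperone of secretory proteins, differed by 0.66 ± 0.38 (SE) at day 2 and by 1.43 ± 0.61 with all 24 arrays.

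In the COPII coat, SAR1A, the GTPase whose activation starts the coat, came nearest to the threshold. Its levels were 2.37, 2.49, 2.74 and 2.74 at day 2 of conception cycles, 2.21, 2.33, 1.83 and 2.53 at day 4 and 2.57, 1.89, 1.50 and 2.05 at day 6. Of the day 6 arrays 3 lay below all day 2 arrays, while replicate 1 lay among them. The difference was -0.58 ± 0.23 (SE; unadjusted p = 0.0197), with an adjusted p of 0.231 by limma and an interval from -1.06 to -0.10. Without conception day 6 replicate 1 it was -0.77 (adjusted p = 0.0524), the smallest of any member in 33 other fits by limma. Non-mated arrays of SAR1A had 2.66, 2.24 and 2.26 on day 2, 2.09 and 1.76 on day 4 and 2.34, 2.30, 2.13 and 2.38 on day 6. The interaction of cycle type with days 6 and 2 was -0.48 ± 0.34 (SE; adjusted p = 0.94 by limma), and -1.15 ± 0.67 with all 24 arrays.

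The day difference of conception cycles was uneven over the scan days that the file headers record. SAR1A differed by -0.97 within scan day 1 and by -0.20 within scan day 2, KDELR3 by -0.94 and -0.13, and SRP72 by -1.02 and -0.17, with 2 arrays of each day in each. Slides 7 and 8, both of scan day 1, held 1 conception array of each day, and SAR1A differed there by -1.24 and -0.69. The median over 28 members was -0.37 within scan day 1 and -0.02 within scan day 2, against -0.01 and 0.01 over all features. Scan range ran with day as well. By the file headers 3 of the 4 conception arrays of day 2 were scanned over a single range, against 1 of 4 on day 4 and 1 of 4 on day 6, and 1 non-mated array of day 2 was. Without these arrays 1 conception array of day 2 remains, and against it SAR1A differed by -0.75, KDELR3 by -0.76 and SRP72 by -0.87, with a member median of -0.27. With the slide as a fixed block the median was -0.36, against -0.11 without a block.

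The other members of the COPII coat and export are SEC13 and SEC23A of the coat, SAR1B, a close relative of SAR1A, and LMAN1, a receptor that loads glycoproteins into the vesicles. SEC23A averaged -1.47 ± 0.21, -1.56 ± 0.10 and -1.65 ± 0.58 in conception cycles at days 2, 4 and 6 (SD, n = 4 each), against -1.30 ± 0.28 (n = 3), -2.17 ± 0.31 (n = 2) and -1.72 ± 0.29 (n = 4) in non-mated cycles. LMAN1 averaged -0.33 ± 0.48 in conception cycles at day 2 (SD, n = 4), against 0.27 ± 0.23 (n = 3) in non-mated cycles, a difference of -0.60 ± 0.31 (SE; adjusted p = 1 by limma), with the smallest p of a member on that day. Its 3 probes gave -0.60, -0.38 and -0.65.

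COPA, of the COPI coat, was the 1 member of 28 whose arrays did not overlap between cycle types at day 2, against 2.77% of all features. It averaged -0.11 ± 0.12 in conception cycles (SD, n = 4) and -0.51 ± 0.22 (n = 3) in non-mated cycles, a difference of 0.39 ± 0.30 (SE), and 0.00 ± 0.43 with all 24 arrays, where 0 of 27 members were without overlap, against 1.43% of all features. The array files place 27 bases of its probe on the genome, at chr1:138910199-138910225. GOLGA2, a Golgi matrix protein, had the widest spread between arrays of a group, and its day 4 difference of -0.98 had an interval from -2.40 to 0.44 and was -0.24 with all 24 arrays.

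In the remaining comparisons the 3 members with the smallest p did not pass the threshold. At day 6 the differences between cycle types were -0.29 ± 0.23 for SAR1A, -0.27 ± 0.23 for KDELR3 and -0.33 ± 0.28 for SRP72 (SE), and 0 members were without overlap, against 4.29% of all features. For day 4 against day 2 of conception cycles COPA differed by -0.49 ± 0.28 and DERL1 by 0.44 ± 0.25, after SRP54, with 0 members without overlap, against 4.11%. For day 6 against day 4 SRP72 differed by -0.55 ± 0.28, COPA by 0.45 ± 0.28 and DERL1 by -0.36 ± 0.25, with 0 without overlap, against 2.23%. For day 6 against day 2 of conception cycles SRP72 alone was without overlap, against 7.63% in either direction. For day 6 against day 2 of non-mated cycles LMAN1 differed by -0.64 ± 0.31, HERPUD1 by 0.49 ± 0.31 and GOLGA2 by 0.93 ± 0.60, the last 2 by 1.16 and 0.51 with all 24 arrays. The interaction had its smallest p for GOLGA2, at -1.27 ± 0.81, SAR1A and SSR1, the last at 0.69 ± 0.50, or 0.13 with all 24 arrays.

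**Figure D4:**
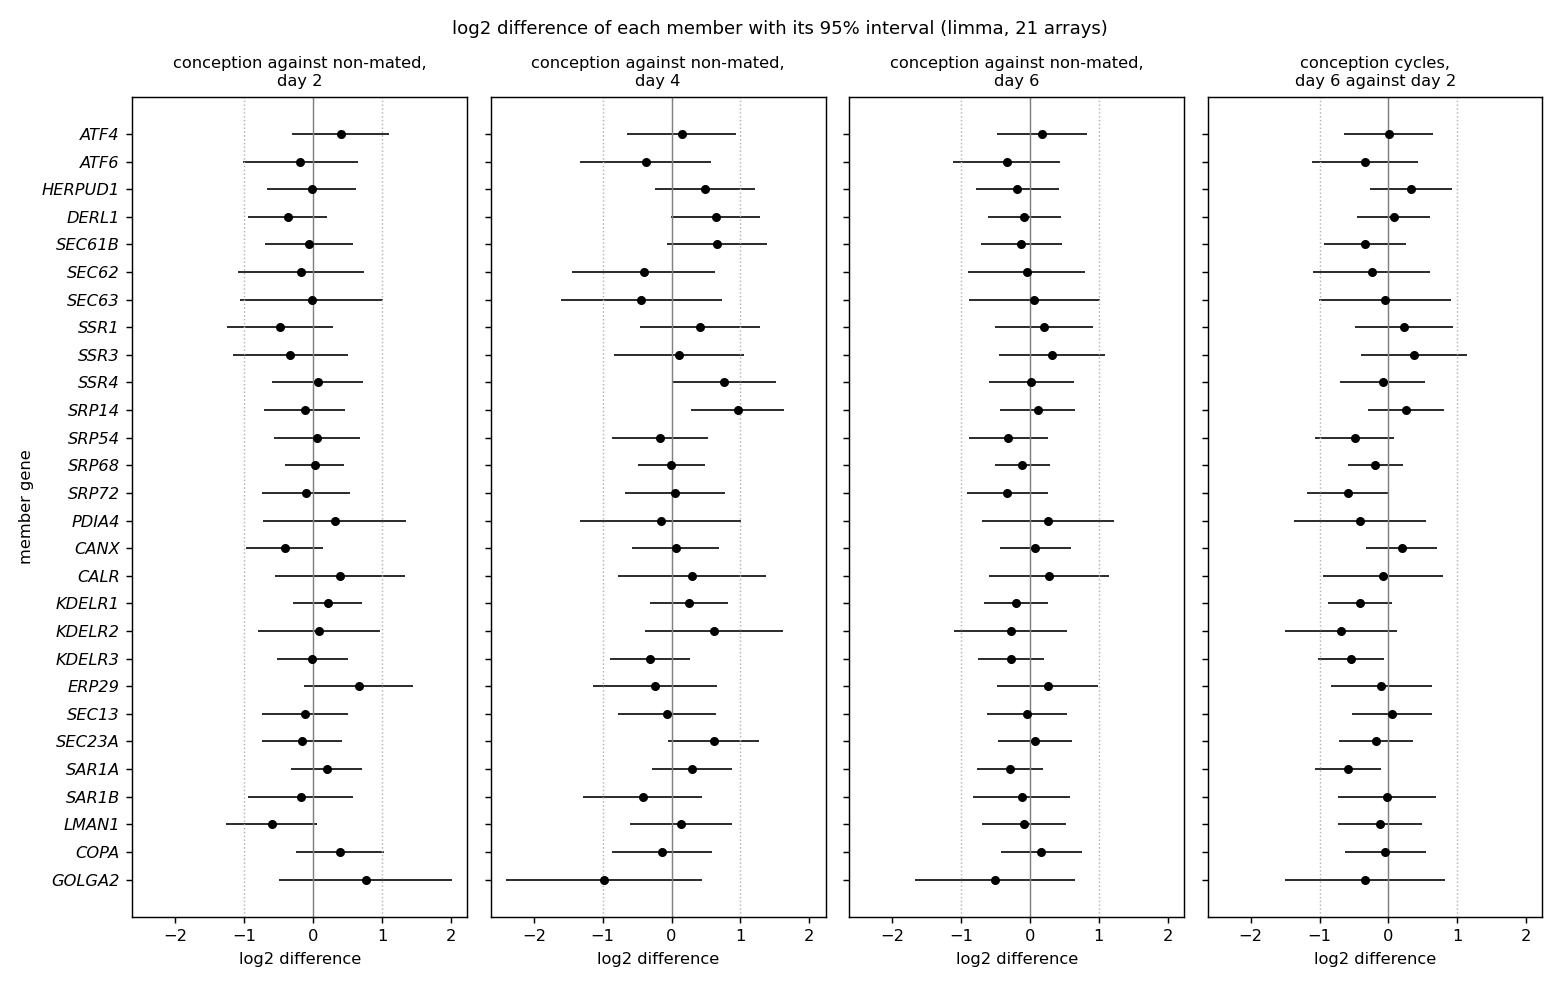
Log2 difference of each of 28 members (points) with its 95% interval (lines) in 4 comparisons, from limma on 21 arrays. Dotted lines mark a log2 difference of 1 either way, and the intervals that do not cross 0 are those of SRP14 and SSR4 at day 4 and of SAR1A, KDELR3 and SRP72 in day 6 against day 2 of conception cycles.

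How large a change could have been missed differed between comparisons. The 95% interval lay within a 2-fold change either way for 16 of 28 members at day 2, 11 at day 4 and 21 at day 6 between cycle types. In conception cycles it did so for 19 members in day 4 against day 2, 20 in day 6 against day 4 and 17 in day 6 against day 2. It did so for 15 in day 6 against day 2 of non-mated cycles and for 5 in the interaction. For the remaining members a 2-fold change lies inside the interval.

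Counted by sign, 20 of 28 members were lower at day 6 than at day 2 of conception cycles, with a median of -0.11, and 20 of 28 in non-mated cycles, on other arrays, with a median of -0.13. Of the conception arrays, 3 of 4 at day 2 and 1 of 4 at day 6 were of the single scan range, whose part in the sign count was not tested. Lower in both were 15 members and higher in both were 3. The medians of all features were -0.01 and 0.01, with 49% and 51.7% of them higher. With all 24 arrays the non-mated median was 0.09, with 13 of 27 members lower, against -0.18 over all features. Under normexp background correction the conception medians were -0.18 over the members and -0.20 over all features, so that relative to all features the members were not lower there, while the non-mated medians were -0.12 and 0.14. Between cycle types the member median was 0.08 at day 4 and -0.07 at day 6, against 0.00 and 0.01 over all features.

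Of the 30 listed genes whose symbol is no gene name in the files, 8 were matched through the RefSeq gene table and 12 through the description, and 10 were not matched. All 20 passed the filter, and 0 of them passed the threshold in any comparison by limma. The probe described as SEC61A1 lies on another chromosome than the gene in the RefSeq table, so its levels are not given. COPE, a COPI coat subunit, had 2.23, 2.01, 2.10 and 1.68 at day 4 of conception cycles, against 2.84, 2.75, 2.85 and 2.47 at day 2, with no overlap. The difference was -0.72 ± 0.20 (SE; unadjusted p = 0.00198; adjusted p = 0.348 by limma). CREB3L1, a relative of ATF6 that raises secretory genes, had -2.10, -3.12, -3.04 and -3.66 at day 4 of conception cycles, against -1.70, -2.00, -0.93 and -1.69 at day 2, also with no overlap. The CREB3L1 difference was -1.40 ± 0.45 (SE; adjusted p = 0.41 by limma). Among all features 4.11% did not overlap between these days. The non-mated day 4 arrays of CREB3L1 had -1.89 and -1.57, so that conception arrays lay below them without overlap, by -1.24 ± 0.55 (SE; adjusted p = 0.874 by limma). The weak day 4 arrays of CREB3L1 had -2.25 and 1.13, and with them the groups overlapped. Among all features 14.0% did not overlap at day 4 between cycle types. P4HB, SPCS1 and COPB1 were also without overlap there, but higher in conception cycles. On the weak non-mated day 4 replicate 1 these genes had 6.40, 2.63 and 1.77, and with it their groups overlapped. COPE and CREB3L1 were chosen after their values were seen.

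A wider list of 188 other genes of the pathway had 125 on the array and 117 tested. In each of the 8 comparisons 0 of 117 passed the threshold by limma. At an unadjusted p under 0.05 stood 0 of them between cycle types at day 2, 3 at day 4 and 2 at day 6, against 1.29%, 5.38% and 9.19% of all features. In conception cycles 4 stood there for day 4 against day 2, 2 for day 6 against day 4 and 6 for day 6 against day 2, against 8.16%, 5.08% and 15.0%. The count was 1 for the non-mated days and 1 for the interaction, against 1.88% and 4.28%. In both it was DDIT3, a regulator of the stress response, at 0.82 ± 0.34 and -1.04 ± 0.46 (SE). The median difference of the 117 genes was 0.02, -0.03 and 0.00 between cycle types on the 3 days. HSP90B1, a major chaperone of the endoplasmic reticulum, ranged from 4.34 to 5.69 in conception cycles at day 6, against 4.25 to 4.73 in non-mated cycles. The probe of HSPA5, the chaperone BiP by which the stress response is usually read, was well above background on 6 of 21 arrays, and that of ERN1, the sensor IRE1, on 0. Probes of DDIT3, of EIF2AK3, the sensor PERK, and of DNAJB9 were so on all 21. CREB3L3, another relative of ATF6, had the smallest adjusted p of these genes, 0.0869 by limma for day 6 against day 2 of conception cycles and 0.998 with all 24 arrays. Its levels ranged from -3.67 to -1.76 at day 6, against -5.59 to -3.32 at day 2, and its probe was well above background on 3 of the 4 day 6 arrays and on 2 of the 4 day 2 arrays. The genes named from this wider list were chosen after their values were seen.

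Over 21 arrays the 378 pairs of members had a median Pearson r of 0.08, against -0.003 for pairs of all features, and single pairs ran from -0.80 to 0.77. The pairs share arrays and scaling, and these values are a description. Of translocation genes, SSR4 and SRP14 had r = 0.77, SSR1 and SSR4 had 0.71, and SEC61B and SRP14 had 0.69. Other pairs of translocation genes were negative, such as SEC63 at -0.71 with SSR4 and -0.59 with SSR1. Of retrieval and export, KDELR2 and SEC23A had 0.73, and SEC23A and SAR1A had 0.72. Pairs across roles reached like values, with SEC61B at 0.74 with KDELR1 and 0.70 with SAR1A. ERP29 had -0.61 with KDELR2 and -0.60 with SEC23A. GOLGA2 had negative values with 5 of the 10 translocation genes and positive ones with 5, running from -0.80 with SSR4 and -0.75 with SSR1 to 0.47 with SRP54 and 0.63 with SEC63. The SEC63 values are weakly founded, as its probe was well above background on 7 of 21 arrays. After the group means were taken out, the median over pairs was 0.07, and SSR4 with GOLGA2 had -0.88.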

How the data were processed

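Members and lists were chosen with earlier results of these data known. The authors deposited scanner files with a fluorescence intensity per spot (1 colour, Cy3), background-subtracted and detrended by Agilent Feature Extraction, version 9.5.3.1 per the file headers and 10.7.3.1 per the submitters' processing notes. A table of log2 values of the same arrays, deposited by the authors with no stated baseline, served as an alternative. Control spots and spots with outlier flags were left out, the 2 spots of a probe averaged, and the log2 signal set against the 75th percentile of the same array. Arrays needed 50% of probes well above background. A feature was kept if its probe was well above background on at least 75% of the arrays of a group. A model with 1 mean per group was fitted with limma 3.58.1 (lmFit, eBayes, R 4.3.3), with Benjamini-Hochberg adjustment over all features, two-sided. The fit was tested on simulated data. Python 3.11.15, pandas 2.3.3, numpy 2.4.6 and matplotlib 3.10.9 were used. The number of arrays limits the precision. Samples were not treated as paired by replicate number (same-number deviations correlated at a median of 0.03, from -0.35 to 0.62). These correlations cannot exclude that some samples share an animal, and they do not separate replicate number from slide and scan day.

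Named with per-array values were the 6 members with the smallest unadjusted p over the 8 comparisons, since 0 passed the threshold, with ATF4 and ATF6, and XBP1 by its means. Alternatives were all 24 arrays, quantile normalization, normexp background (offset 50), other filters, all probes of a gene, extended names, the authors' table, blocks for replicate, scan day and slide, and each array left out. Gene names came from the files and the RefSeq gene table of T2T-MMU8v2.0, used for names and chromosomes only. Protein and promoter sequences were not used here.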

Additional observations from a re-analysis of the deposited data

Results flagged for a closer look

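Over the 28 members, arrays far from the rest of their group were looked for in the 4 groups of 4 arrays, 112 sets in all, of which chance flags about 1 in 20. In 2 sets 1 array stood apart. SEC62, which assists the Sec61 channel, was at -1.39 in non-mated day 6 replicate 3, while the other arrays of the group lay between -0.48 and -0.31. LMAN1, the cargo receptor, was at -0.18 in conception day 6 replicate 1, while the others lay between -0.57 and -0.51.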

How the results depend on the processing

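No member passed the threshold in any comparison under 33 other limma fits, of which 21 leave out 1 array each. In those 21 the count was 0 throughout, and the median member difference ranged from -0.07 to 0.09 at day 2, -0.02 to 0.18 at day 4 and -0.14 to 0.01 at day 6 between cycle types. In conception cycles it ranged from -0.22 to -0.07 for day 4 against day 2, -0.14 to -0.06 for day 6 against day 4 and -0.21 to -0.05 for day 6 against day 2. In non-mated cycles it ranged from -0.24 to -0.06, and for the interaction from -0.16 to -0.01. With all 24 arrays the member median moved to 0.33 at day 2, 0.33 at day 4, 0.0885 for day 6 against day 2 of non-mated cycles and -0.31 for the interaction. For day 6 against day 2 of conception cycles it moved to -0.36 with the slide as a fixed block and to -0.27 without the 6 arrays scanned over a single range, a setting chosen after seeing the data that leaves 1 conception array of day 2, assumed to vary like the other groups. The cause of these shifts was not tested. The other settings moved each member median by less than 0.12, the SD between arrays of a group. Of 21 arrays 7 correlated best with an array of their own replicate number, which does not settle whether the numbers pair the samples. With the replicate block the count of members past the threshold was 0 in each comparison, and the member median for day 6 against day 2 was -0.11 in conception cycles and -0.22 in non-mated cycles. Normexp background correction moved the median of all features to 0.25 at day 2 and 0.22 at day 4 between cycle types, where the member medians were -0.07 and 0.12, and to -0.30, 0.12 and -0.31 for day 4 against day 2 and day 6 against day 4 of conception cycles and for the interaction, where the member medians were -0.08, -0.12 and -0.04. Features past the threshold for day 6 against day 2 of conception cycles numbered 193, but 2 with all 24 arrays, 99 with no filter, 388 with scan day as a block and 0 with normexp. Signal over background limits SEC63 and SEL1L.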
